A study of Mus musculus with 4 samples.

Results

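The m6A-enriched RNA of interscapular brown adipose tissue (iBAT) in which *Mettl3* was deleted is described here from the BKO libraries alone. The table deposited for m6ARIP-seq lists 9243 regions of the mouse genome, and the 7211 regions (78.0%) with at least 20 reads in the BKO input were kept. In each of them the fold enrichment is the reads scaled to library size (RPM) of the immunoprecipitate (IP) over the RPM of the input, with 1 added to each read count. Kept regions lay over 5276 genes by symbol, and 596 of them had no gene named. All mice were C57BL/6 on a chow diet and were 8 weeks old. The BKO mice carried Mettl3 flox/flox with UCP1-iCre, and the controls were Mettl3 flox/flox without Cre. Poly(A)+ RNA of each genotype was pooled from 5 mice and gave 1 IP and 1 input library, so no value has a replicate and no test between libraries was possible. The iCre was expressed from the *Ucp1* gene, and cells that never expressed *Ucp1* lie outside its reach, which these reads could not check. From pooled tissue RNA, the cells that a captured fragment came from cannot be told apart, nor can fewer cells of a type from less RNA per cell.

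N6-methyladenosine (m6A) is written into mRNA by a complex whose catalytic subunit is METTL3, together with METTL14, WTAP and further subunits. It lies mostly in the sequence context known as DRACH, near stop codons and in 3′-UTRs, and is read by YTH domain proteins that affect splicing, translation and decay of the transcript. Other enzymes also methylate RNA adenosines: METTL16 modifies U6 snRNA and hairpins in the *Mat2a* 3′-UTR, and PCIF1 modifies the first transcribed base next to the cap when this is an adenosine (m6Am), a mark that m6A antibodies also bind.

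The BKO IP library held 13687380 reads and the BKO input 13394053, against 8309098 and 8826904 in flox/flox iBAT. Kept regions took 27.5% of the BKO IP reads and 11.2% of the BKO input reads, and 45.5% and 8.65% of the flox/flox reads. A kept region had a median of 260 IP and 87 input reads in BKO iBAT, and of 163 and 30 in flox/flox iBAT. *Mettl3* itself had 0 regions in the table, so the deletion could not be checked in these reads. The table lists only regions above 1 in both genotypes and called as a peak in at least 1 of them, and an enrichment at or below 1 could not be seen.

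The 7211 regions spanned from no enrichment to 27.4-fold. The quartiles of the BKO fold enrichment were 1.71, 2.67 and 4.24. It was at least 2 in 4794 regions (66.5%), at least 4 in 2007 (27.8%) and at least 8 in 419 (5.81%). These levels rest on the library totals, and far fewer regions reached 2 with totals from the listed regions alone, as given below. The 95% counting interval, which covers counting error only and takes 2 reads as 1 fragment, lay above 1 in 6096 regions (84.5%). At the other end, 317 regions had a fold enrichment under 1.1. A peak was called by the authors in BKO iBAT in 5597 of the regions (77.6%), with a median fold enrichment of 3.22, and the median was 1.33 in the 1614 regions with a call in the flox/flox libraries alone. Peaks called in BKO iBAT but not in flox/flox iBAT made up 2262 regions, with a median of 3.62, and those called in both genotypes 3335, with 2.94. Calls use the IP and input reads themselves and are no independent support. Where the flox/flox input also held 20 reads or more (4523 regions), the median was 2.38 in BKO and 4.56 in flox/flox libraries.

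Enrichment went down as the input went up. Over genes, each represented by its most enriched kept region, the median was 4.05 with 20 to 49 input reads, 3.12 with 50 to 99, 2.71 with 100 to 199, 2.30 with 200 to 499 and 1.82 from 500 reads on. The input count is the denominator of the ratio, so both share its error, and Pearson's r of the log2 values was -0.34 over the 7211 regions. The regions with 20 or 21 input reads, just inside the minimum, had a median of 4.52, and those with 18 or 19 reads, just outside, had 4.89. The plot of enrichment against input level shows that abundant transcripts such as *Adipoq* and *mt-Nd2* lay near the floor, and that the ratios above 16 belonged to regions of low input.

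**Figure D1:**
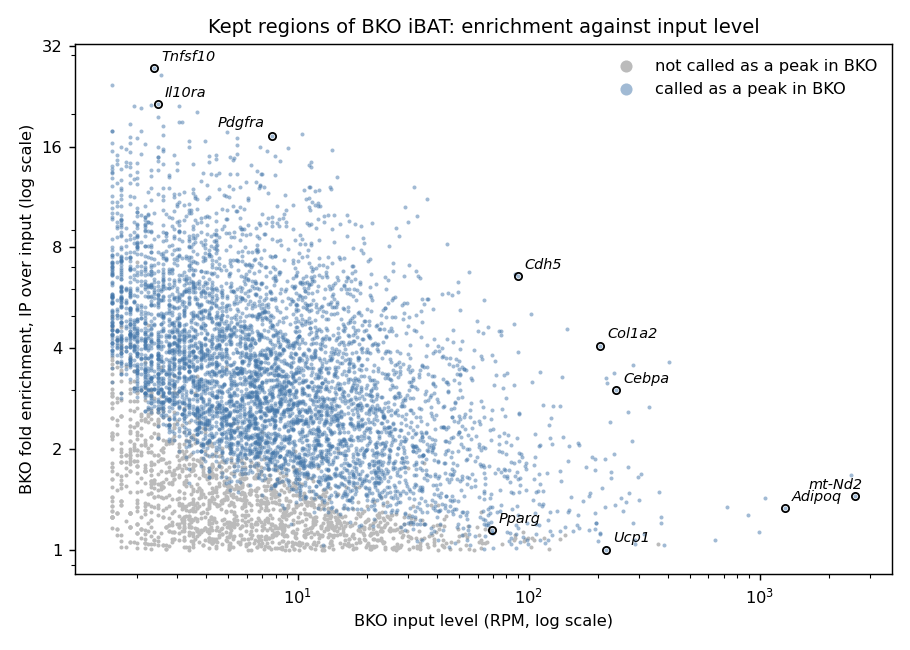
Fold enrichment in BKO iBAT (IP RPM over input RPM, log scale) against the BKO input level (RPM, log scale) for the 7211 kept regions. Blue points were called as peaks in BKO iBAT (5597) and grey points were not (1614). *Tnfsf10* stood highest at 27.4, and *Ucp1* lay at 1.0.

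Cytokine and immune receptor genes stood among the 25 most enriched genes, the rule being the highest fold enrichment in a region over 1 named gene. *Tnfsf10*, which encodes the death ligand TRAIL, had 896 IP and 31 input reads in BKO iBAT at chr3:27335361-27335964 (GRCm38, last exon), against 166 and 32 in flox/flox iBAT. Its BKO fold enrichment was 27.4 (95% counting interval 16.7 to 45.2). The BKO IP of *Tnfsf10* was the highest of the 4 libraries. Read counts are given as listed, and the BKO IP library was the deeper of the IPs. *Il10ra*, the receptor chain that binds interleukin-10, had 723 IP and 32 input reads in its 3′-UTR and reached 21.5 (13.1 to 35.2), while flox/flox iBAT had 12 and 8 reads there. *Stat2*, a transcription factor of type I interferon signalling, had 672 IP and 30 input reads in its last exon, for 21.2 (12.8 to 35.3), and 42 and 20 reads in flox/flox iBAT. In both genes the flox/flox reads were few in the IP as in the input, and no peak was called there in flox/flox iBAT. *Ptger4*, a receptor for prostaglandin E2, reached 21.1 (13.6 to 32.9) on 885 and 40 reads at a region labelled intron. *Fcgr1*, the high-affinity IgG receptor of myeloid cells, had 477 and 24 reads and a fold enrichment of 18.7 (10.6 to 33.0), and *Ptafr*, the receptor for platelet-activating factor, had 507 and 27 reads and 17.8 (10.4 to 30.4). *Fcgr1* was the one of these with more IP reads in flox/flox iBAT, with 540 IP and 4 input reads.

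Transcription factor and signalling genes with more input behind them had narrower intervals. *Pdgfra*, the receptor that marks fibroblasts and adipocyte progenitors, had 1804 IP and 102 input reads at chr5:75195017-75195735 (last exon) in BKO iBAT, against 53 and 18 in flox/flox iBAT, and a fold enrichment of 17.1 (13.0 to 22.7). It had far more IP reads in BKO than in flox/flox iBAT. *Pde4b*, a phosphodiesterase that degrades cAMP, had 1265 and 72 reads in its last exon, against 28 and 15, and reached 17.0 (12.2 to 23.7). *Tcf15*, a bHLH factor expressed in the endothelium of metabolic tissues, had 1206 and 72 reads, against 2674 and 38, and reached 16.2 (11.6 to 22.6). For *Tcf15* the IP was thus high in both genotypes. *Gjc1*, a connexin, had 1188 and 65 reads at a region labelled intergenic and reached 17.6 (12.4 to 25).

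Others of the 25 genes lay between 16.4 and 20.9. Among them were *Mafa*, *Frmd4a*, *Tnxb* (tenascin-X of connective tissue), *Apbb2*, *Rap1b* (a small GTPase), *Nectin3* (a cell adhesion protein), *Ndor1*, *Jade2*, *Zmynd8*, *Tnnc2*, *Kcnj12* (an inward rectifier potassium channel), *Arl4d*, *Cnbd2* and *Mrgprf*. The fast skeletal muscle troponin C gene *Tnnc2* had 468 IP and 26 input reads in BKO iBAT and 2 and 0 in flox/flox iBAT. Its BKO fold enrichment was 17.0 (9.82 to 29.4). The 23 skeletal muscle genes with a kept region summed to 1010 RPM in the BKO input and 42.3 RPM in the flox/flox input, and the part of this in the result was not tested. Order within the 25 depended on thin inputs: 21 of them were shared when 5 was added to each count, 15 when genes were ranked by the lower bound of the interval, and 6 when at least 50 input reads were asked for. Among these 6 were *Gjc1*, *Pdgfra*, *Pde4b*, *Kcnj12* and *Tcf15*, joined at the head of that order by the semaphorin gene *Sema4c*, the endothelial matrix gene *Mmrn2*, the fibronectin receptor chain *Itga5* and the myeloid factor gene *Spi1*.

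Endothelial, fibroblast and immune markers had higher medians than adipocyte and thermogenic genes. Over all 5276 genes the median was 2.99, with 33.1% at 4 or above and 7.66% at 8 or above, and it is beside these values that each list is read. The median was 6.55 over 18 endothelial markers, of which 12 reached 4, 4.46 over 11 fibroblast and preadipocyte markers, of which 7 did, and 3.87 over 19 macrophage and other immune markers, of which 9 did. General adipocyte genes had a median of 1.87 over 11 genes, of which 1 reached 4, and thermogenic genes one of 2.63 over 10, of which 3 did. The lists differ in how deeply their regions were read, with a median of 169.5 input reads for endothelial markers, 95 for immune markers, 406 for fibroblast markers and 2604 for general adipocyte genes. Among regions with at least 100 input reads, a setting chosen after the values were seen, the medians were 7.52 (endothelial, 15 genes), 4.70 (fibroblast, 10), 5.20 (immune, 8) and 1.87 (general adipocyte, 11), beside 2.41 over all 2352 such genes. With each gene's region of the most input reads, the immune median was 2.60, with 5 of the 19 at 4 or above, beside 2.63 over all genes. Over all 389 genes with at least 500 input reads the median was 1.82, close to the 1.87 of the deeply read general adipocyte genes. Each list spread widely, and the members below show both ends.

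**Figure D2:**
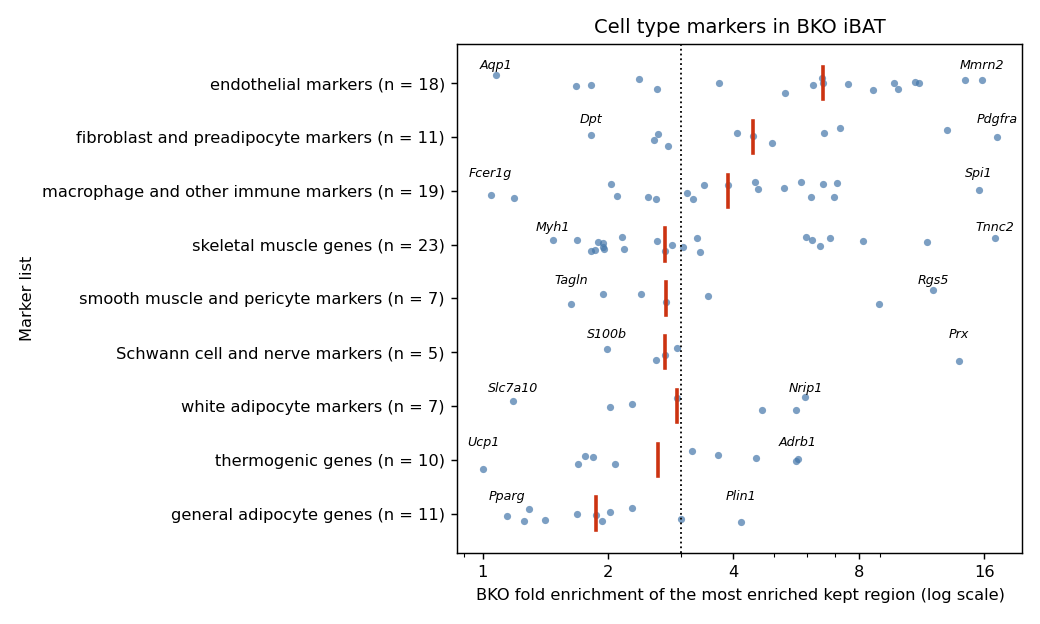
Fold enrichment in BKO iBAT (log scale) of the most enriched kept region of each marker gene, 1 point per gene, by marker list. The red bar is the median of the list and the dotted line the median over all 5276 genes (2.99). Endothelial markers centred on 6.55 and general adipocyte genes on 1.87, and both lists reached from near 1 to above 4.

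Endothelial genes gave some of the firmest values. *Mmrn2*, a matrix protein of vessels, had 1951 IP and 120 input reads in BKO iBAT (690 and 100 in flox/flox) and a fold enrichment of 15.8 (12.2 to 20.5). *Robo4*, which stabilises vessels, had 2248 and 152 reads (3066 and 86) and 14.4 (11.4 to 18.1). The tight junction gene *Cldn5* had 5565 and 486 reads (5683 and 277) and 11.2 (9.81 to 12.7). In these genes the BKO IP stood far above its input, as did the flox/flox IP. *Sox17*, *Eng*, *Erg* and the VEGF receptor gene *Kdr* lay between 8.63 and 10.9. *Cdh5*, the cadherin of endothelial junctions, had the most input reads of the list, 1198, with 8051 in the IP, and still reached 6.57 (6.03 to 7.16). Flox/flox iBAT had 1946 IP and 1618 input reads at *Cdh5*, so there the libraries were nearly level. The list also held low values: *Nos3*, the endothelial nitric oxide synthase, had 1.67 (1.18 to 2.37), in a region shared with another gene, and the water channel gene *Aqp1* 1.08 (0.859 to 1.36). Neither was called as a peak in BKO iBAT. The input of the 18 genes summed to 365 RPM in BKO and 502 RPM in flox/flox iBAT.

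Fibroblast genes followed. Below *Pdgfra*, the pericyte and fibroblast gene *Cd248* had 2633 IP and 197 input reads in BKO iBAT (2166 and 60 in flox/flox) and 13.0 (10.6 to 16). The fibrillin gene *Fbn1* had 2539 and 344 reads (148 and 68) and 7.20 (6.15 to 8.45). *Col1a2*, a chain of type I collagen, combined a high level with enrichment: on 11351 and 2726 reads (3200 and 408) it had 4.07 (3.84 to 4.32), which placed it among the 10 regions with the most BKO IP reads. The lowest of the list were the other chain, *Col1a1*, with 2.58 (2.44 to 2.72), and *Dpt*, a dermatopontin gene, with 1.82 (1.58 to 2.1). The input of the 11 genes summed to 702 RPM in BKO and 228 RPM in flox/flox iBAT, and the part of this difference in the enrichment was not tested.

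Among immune genes, *Spi1*, which encodes the myeloid factor PU.1, had 1554 IP and 97 input reads in BKO iBAT (596 and 24 in flox/flox) and 15.5 (11.6 to 20.7). *Mertk*, a receptor for the clearance of dead cells, had 579 and 79 reads (36 and 30) and 7.09 (5.10 to 9.87), and *Cd14*, the co-receptor for lipopolysaccharide, 1084 and 151 (104 and 70) and 6.99 (5.49 to 8.88). All 3 had higher IP and input counts in BKO than in flox/flox iBAT, whose libraries held fewer reads. The IP counts alone thus do not give the order of the enrichment. *C1qb*, a complement gene of tissue macrophages, had the most input reads of the group above 4, with 4594 and 998 reads and 4.50 (4.09 to 4.96). *H2-Eb1* and *Fcer1g*, with 1.19 (1.01 to 1.39) and 1.04 (0.748 to 1.46), were not called in BKO iBAT. The input of the 19 genes summed to 253 RPM in BKO and 148 RPM in flox/flox iBAT. The defining leukocyte genes *Ptprc*, *Adgre1* and *Cd68* had no listed region.

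Smaller lists stood close to all genes. Smooth muscle and pericyte markers had a median of 2.75 over 7 genes, with *Rgs5*, a pericyte regulator of G protein signalling, at 12.1 (7.40 to 19.6). Schwann cell markers had a median of 2.73 over 5, with the myelin gene *Prx* at 13.9 (7.85 to 24.7). White adipocyte markers had 2.94 over 7, led by the corepressor gene *Nrip1* with 5.96 (3.19 to 11.1). The skeletal muscle genes, with 1010 RPM of input in BKO and 42.3 RPM in flox/flox iBAT, had a median of 2.75 over 23, and 7 reached 4. Below *Tnnc2*, the slow troponin T gene *Tnnt1* had 1178 IP and 98 input reads and 11.7 (8.72 to 15.6), against 0 and 0 reads in flox/flox iBAT. The myosin heavy chain genes *Myh1* and *Myh2* were at 1.48 (1.23 to 1.78) and 1.68 (1.43 to 1.97).

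*Ucp1*, *Pparg* and *Prdm16* stood at the low end of the range. *Ucp1*, the uncoupling protein, had 2958 IP and 2887 input reads in its last exon and a fold enrichment of 1.0 (0.933 to 1.08). The flox/flox libraries had 11244 and 2017 reads there. *Pparg*, the nuclear receptor of adipocyte differentiation, had 1084 and 926 reads and 1.15 (1.01 to 1.30), and *Prdm16*, a regulator of brown fat fate, had 59 and 44 reads and 1.30 (0.755 to 2.25). In BKO iBAT the IP and input of *Ucp1* and *Pparg* were thus near level, and the wide interval of *Prdm16* leaves its ratio uncertain. The authors still called a peak in BKO iBAT in the regions of *Ucp1* and *Pparg*, and none in that of *Prdm16*. UCP1-iCre is carried by BKO mice only, and its effect on the *Ucp1* reads was not tested. Of the other adipocyte genes, *Cfd*, the adipsin gene, stood at 1.26 (1.19 to 1.32), *Plin4* at 1.29 (1.17 to 1.42) and *Adipoq*, the adiponectin gene, at 1.41 (1.33 to 1.49). Adipocyte genes at the upper end were *Plin1*, which coats the lipid droplet, with 890 and 208 reads in its 5′-UTR and 4.17 (3.37 to 5.16), *Cebpa* with 3.0 (2.83 to 3.17) on 9775 and 3189 reads, and the resistin gene *Retn* with 2.29 (2.05 to 2.55). *Cebpa* was the most deeply read of these 3.

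Thermogenic genes ranged widely. *Ucp3* and *Ucp2*, relatives of *Ucp1*, had 5.66 (4.17 to 7.68) and 4.53 (2.52 to 8.16) in the 5′-UTR, and *Adrb1*, the β1-adrenergic receptor gene, had 5.71 (3.70 to 8.80) in its last exon. *Adrb3*, the main β-adrenergic receptor of mouse adipocytes, had 2501 and 666 reads (905 and 413 in flox/flox) and 3.67 (3.25 to 4.14). The cytochrome c oxidase gene *Cox7a1* stood lowest beside *Ucp1*, with 1.69 (1.55 to 1.85). When each gene took the kept region with the most input reads, the median of the list was 1.67. The 26 brown fat transcription factors and cofactors had a median of 2.88, and 7 reached 4. *Creb1*, the cAMP-responsive factor, had 321 and 22 reads and 13.7 (7.53 to 24.9), the corepressor gene *Ncor1* 204 and 22 and 8.72 (4.74 to 16), and *Cebpd*, a factor of early adipogenesis, 2246 and 256 and 8.56 (7.13 to 10.3). *Cebpd* thus rests on far more input than *Creb1* and *Ncor1*.

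Lists of receptors, transcription factors and signalling genes had higher medians than those of translation and energy metabolism. The medians were 4.8 over 34 G protein-coupled receptors (21 at 4 or above), 4.57 over 25 immediate early genes (14), 4.46 over 51 members of developmental transcription factor families (28), 4.34 over 39 genes of BMP, TGF-beta, Wnt and Notch signalling (23) and 3.91 over 154 C2H2 zinc finger genes (74). Chromatin modifiers and remodellers had 3.70 over 68 genes (31), histones 3.68 over 10 (4) and small GTPases with their regulators 3.60 over 101 (42). At the low end stood cytosolic ribosomal proteins with 1.55 over 20 (2), lipid metabolism and lipid droplet genes with 1.57 over 17 (4), mitochondrial ribosomal proteins with 1.60 over 37 (1), oxidative phosphorylation subunits with 2.04 over 47 (5) and translation factors with 2.05 over 35 (6). The share at 4 or above over all genes was 33.1%. With at least 100 input reads, these lists lay on the same sides of the median over all genes, 2.41, with 5.15 for immediate early genes, 4.06 for BMP, TGF-beta, Wnt and Notch genes, 3.65 for G protein-coupled receptors and 3.53 for developmental factors, against 1.45 for cytosolic ribosomal proteins, 1.53 for mitochondrial ones, 1.38 for lipid metabolism genes and 1.96 for oxidative phosphorylation subunits.

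**Figure D3:**
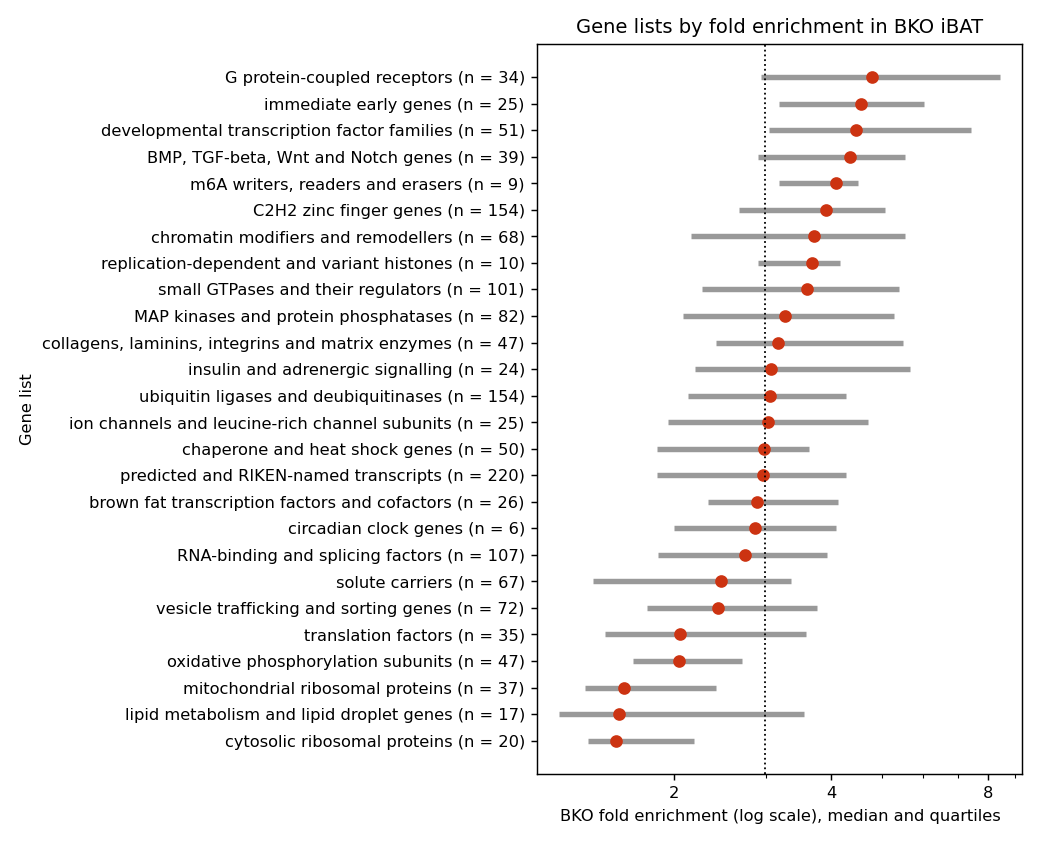
Median (red point) and quartiles (grey bar) of the fold enrichment in BKO iBAT (log scale) for gene lists other than cell type markers with at least 5 genes, ordered by median. The dotted line is the median over all 5276 genes (2.99). Receptors and immediate early genes lay at 4.8 and 4.57, and cytosolic ribosomal proteins at 1.55.

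Of the receptors, *Adora2a*, the adenosine receptor of brown fat and vessels, had 1135 IP and 72 input reads in BKO iBAT (264 and 158 in flox/flox) and 15.2 (10.9 to 21.3), and *S1pr2*, a sphingosine 1-phosphate receptor, had 353 and 23 (10 and 4) and 14.4 (8.04 to 25.9). The adenosine receptor *Adora1* was lowest with 1.75 (1.30 to 2.35). The immediate early genes held well-read values. *Jun*, a subunit of AP-1, had 5280 and 425 reads (2908 and 64) and 12.1 (10.6 to 13.9). *Klf2*, a flow-responsive factor of endothelium, had 4212 and 389 reads (2063 and 242) and 10.6 (9.13 to 12.2), and *Myc* had 724 and 77 (939 and 64) and 9.10 (6.54 to 12.7). *Myc* was the one of these with fewer IP reads in BKO than in flox/flox iBAT. *Egr1* and *Zfp36l1*, with 1.38 (0.955 to 1.99) and 1.14 (0.929 to 1.40), were not called in BKO iBAT. In developmental families, *Tcf15* was followed by *Foxp1* (11.3, 7.65 to 16.7) and *Sox17*, and *Sox6* (1.82, 1.28 to 2.57) and *Tcf12* (1.06, 0.743 to 1.53) closed the list. Of the signalling genes, the Notch ligands *Dll4* and *Jag2* reached 15.9 (10.4 to 24.3) and 11.1 (8.03 to 15.3) and *Bmp4* 9.67 (6.21 to 15.1), and the β-catenin gene *Ctnnb1* stood at 1.62 (1.42 to 1.86). Zinc finger genes ranged from *Zfp275* (15.5, 8.29 to 28.9) to *Zfp952* (1.01, 0.526 to 1.92).

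Insulin and adrenergic signalling had a median of 3.07 over 24 genes, with 8 at 4 or above. Below *Pde4b*, *Pik3ca*, the catalytic subunit of PI3-kinase, had 1116 and 129 reads and 8.41 (6.5 to 10.9), and the kinase gene *Gsk3a* had 7.98 (5.43 to 11.7). The insulin receptor gene *Insr* stood at 3.05 (2.52 to 3.68), and *Tsc2*, a brake on this pathway, stood at 1.12 (0.894 to 1.40). Matrix genes had a median of 3.16 over 47, with 18 at 4 or above, led by *Itga5* with 3026 and 188 reads (1314 and 44 in flox/flox) and 15.7 (12.7 to 19.3) and by the aggrecanase gene *Adamts5* with 15 (11.4 to 19.8). Further medians were 3.26 for MAP kinases and protein phosphatases (82 genes), 3.05 for ubiquitin ligases and deubiquitinases (154), 3.02 for ion channels (25), 2.97 for chaperones (50), 2.96 for predicted and RIKEN-named transcripts (220), 2.85 for clock genes (6), 2.73 for RNA-binding and splicing factors (107), 2.46 for solute carriers (67) and 2.42 for vesicle trafficking genes (72). The 4 imprinted genes had a median of 3.54, with all but *Snrpn* in regions shared with other genes.

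Among oxidative phosphorylation genes the most enriched regions lay at the 5′ end. The 5 oxidative phosphorylation genes at 4 or above were all labelled first exon or 5′-UTR: *Ndufa8*, a complex I subunit with 1299 and 198 reads and 6.39 (5.18 to 7.89), *Uqcr11* with 5.47 (3.56 to 8.41), *Ndufs6* with 5.41 (4.16 to 7.03), *Ndufa12* and *Ndufb4*. At the low end, *Sdhb* had 1.18 (1.05 to 1.34) and *Ndufa3* 1.07 (0.880 to 1.29). The 3 mitochondrially encoded genes, which are transcribed and modified apart from nuclear mRNA, lay between 1.45 and 1.67, with *mt-Nd2* at 1.45 (1.42 to 1.48) on 51699 and 34835 reads. Among lipid genes, the acyl-CoA synthetase gene *Acsl1* had 6.15 (3.71 to 10.2), the nuclear receptor gene *Ppard* 5.63 (3.95 to 8.02) and the fatty acid binding protein gene *Fabp5* 4.53 (3.37 to 6.10). *Plin3*, which coats lipid droplets, had 217 and 202 reads and 1.05 (0.802 to 1.38). Ribosomal protein genes included *Rps27l* (4.05, 2.1 to 7.82), *Rpl14* (1.04, 0.924 to 1.18) and *Rpl22* (1.03, 0.838 to 1.26). Of the 10 named-gene regions with the most BKO IP reads, taken 1 per gene, 7 lay under 2. They were those of *mt-Nd5* with *mt-Nd6*, *mt-Nd2*, *Adipoq*, *Hp*, *Apoe*, *Ctsb* and *Fabp4*. The others were *Ptms* (2.66), *Cavin2* (3.38) and *Col1a2*. This order is by IP reads and not by RNA level.

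Of the m6A machinery, 9 of the 21 genes on the list had a kept region, with a median of 4.09, beside 2.99 over all genes. Of these 9, 5 reached 4, beside 33.1% of all genes. *Mettl14*, *Fto*, *Alkbh5*, *Ythdf1* and *Ythdf3* were among those with no listed region. With the region of the most input reads the median was 3.18 and 3 of the 9 reached 4. Over all genes it was then 2.63, and 1433 of 5276 reached 4. The 3 genes with at least 100 input reads had a median of 2.58, beside 2.41 over all such genes. *Ythdc1*, the nuclear reader, had 432 IP and 68 input reads in an internal exon (50 and 16 in flox/flox) and 6.14 (4.29 to 8.80). *Rbm15b*, a recruiting subunit of the writer, had 597 and 123 reads (202 and 92) and 4.72 (3.59 to 6.20), and *Wtap*, its regulatory subunit, had 353 and 76 (888 and 59) and 4.50 (3.17 to 6.37). *Wtap* was the one of these with fewer IP reads in BKO iBAT. *Virma* and *Zc3h13*, further writer subunits, stood at 4.48 (2.63 to 7.63) and 4.09 (2.65 to 6.30), the cytoplasmic reader gene *Ythdf2* at 2.58 (2.13 to 3.13) and *Hnrnpc* at 1.12 (0.896 to 1.39). Averaged over all kept regions of a gene, 1 of the 9 reached 4, beside 1399 of all 5276 genes. The medians were then 3.44 over the 9 and 2.70 over all genes. *Mat2a*, whose 3′-UTR hairpins are known targets of METTL16, had 2824 and 491 reads in its 3′-UTR and 5.62 (4.91 to 6.43), against 2978 and 116 reads in flox/flox iBAT. The input count of *Mat2a* was the higher in BKO iBAT, and its IP count was the lower. *Pcif1*, which encodes the m6Am writer, had 3.54 (2.14 to 5.84) in its own 5′-UTR.

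By place of the peak center, regions at the 5′ end of transcripts had the highest medians over all kept regions. The median was 3.66 over 301 regions in the 5′-UTR and 3.70 over 265 in first exons, against 2.84 over 856 in internal exons, 2.68 over 1733 in last exons, 2.47 over 2307 in the 3′-UTR and 2.45 over 296 in introns. Together, 246 of the 566 regions at the 5′ end (43.5%) reached 4, and 1093 of the 4040 in last exons and 3′-UTRs (27.1%). The 5′ regions had fewer input reads, with a median of 60 against 97, and 97.5% of them were called in BKO iBAT against 74.0%. Regions entered the table by a call in either genotype, so the places differ in the calls behind them. Among regions called in BKO iBAT the medians lay closer, at 3.71 and 3.23. With at least 100 input reads the medians were 2.68 and 2.13. The 69 intergenic regions had a median of 3.09. Among regions called in BKO iBAT the intergenic median was 3.83, the highest of any place. Of the most enriched 10% of regions (722, at 6.43 or above), 60.9% (95% Wilson interval 57.3 to 64.4) lay in last exons and 3′-UTRs, which hold 56% of all kept regions, and 11.5% (9.37 to 14.0) at the 5′ end, which holds 7.85%. With at least 50 input reads the second share was 8.22%. The share of the 5′ end among all regions at that depth is not given here, so 8.22% cannot be set against 7.85%. These 722 regions were longer, with a median of 553 bases against 370, and 55.0% of them were called in flox/flox iBAT, against 68.6% of all kept regions.

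**Figure D4:**
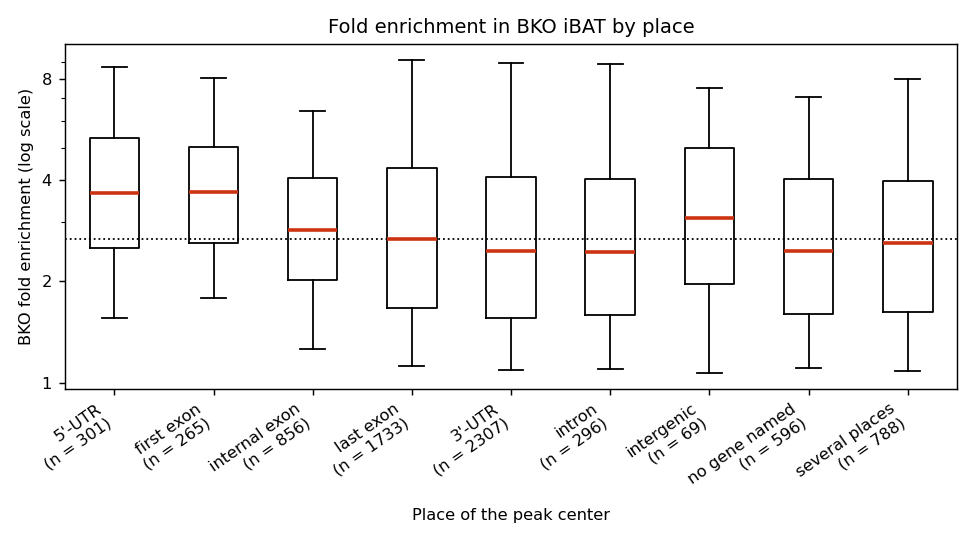
Fold enrichment in BKO iBAT (log scale) by the place of the peak center. Boxes give the quartiles, red lines the medians and whiskers the central 90% of regions, and the dotted line is the median over all 7211 regions (2.67). The 5′-UTR and first exon centred on 3.66 and 3.70, and the 3′-UTR on 2.47.

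Regions near the head of each place are named here. In the 5′-UTR, *Rap1b* had 658 and 34 reads and 18.4 (11.4 to 29.8), *Arl4d* 16.6 (10.8 to 25.4), *Ssbp3* 14.3 (8.06 to 25.3), *Wbp1l* 13.6 (8.26 to 22.4) and *Spaar* 13.2 (9.82 to 17.8). In first exons *Tnnc2* was followed by *Ranbp1*, a regulator of nuclear transport, with 14.9 (9.03 to 24.4). In internal exons, after *Tnxb* and *Zmynd8*, the endothelial Notch ligand gene *Dll4* had 730 and 44 reads, *Themis2* 14.2 (9.36 to 21.6) and the elastic fibre gene *Emilin1* 13.5 (9.97 to 18.3). The deepest region of each exonic class lay far lower, as with *Cst3* in first exons (1.04, 0.980 to 1.11) and *Cfd* in internal exons. A region in no named gene on chromosome 8 (chr8:88626590-88627415) had 523 and 20 reads and 24.4 (13.2 to 45.2), and one in a last exon of an unnamed gene identifier (chr7:44485050-44485443) had 908 and 33 and 26.2 (16.1 to 42.5). Of regions over several places, that of the adrenomedullin gene *Adm* reached 21.1 (12.1 to 36.8).

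The bases at the gene starts were read for the regions at the 5′ end, since m6Am needs an adenosine there. Of the 566 regions, 183 held a RefSeq start of their gene (GRCm38.p6), with 186 starts. Starts on 1 chromosome were left out of the choice of stretches. The first base of the 3 most enriched regions over 1 gene with G at the start and the 3 with A is in capitals in these stretches of 30 bases, with 15 bases before it. They are printed to show that both bases occurred at the head of the order, and 3 of each do not give their shares. Starts with G that are not printed, such as *Wbp1l* (13.6), *Oaz2* (12.5) and *Ankrd40* (11.5), stood above that of *Adh1*.
Rap1b: cgcccagagtcaggcGtggaaagcagcccg
Tnnc2: gggctagagagatctGgggcacctttgggt
Ranbp1: gtcagggttcgggtcGgggggcggagggaa
Ssbp3: cgctcctgccggggcAgccacgttcggttg
Rgs5: gggaaaggctgccccAgattattgaagttt
Adh1: gtgtcgtaaagggccAgatcacgtgtggga
The stretches lie on the minus strand at chr10:117845960-117845989, chr2:164779720-164779749 and chr16:18248680-18248709 for the first 3, and on the plus strand at chr4:106911455-106911484, chr1:169655486-169655515 and chr3:138277570-138277599 for the others. *Adh1*, an alcohol dehydrogenase gene, had 532 IP and 52 input reads and 9.84 (6.60 to 14.7), and *Rgs5* had 430 and 34.

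An A was the first base of 29.6% of the 186 starts (95% Wilson interval 23.5 to 36.5), of 28.2% of the 5186 starts of kept genes and of 34.4% of all 32851 starts. Split by enrichment, A stood at 7 of 47 starts (14.9%, 7.41 to 27.7) from 1 to 3, at 11 of 35 (31.4%, 18.6 to 48.0) from 3 to 4, at 20 of 58 (34.5%, 23.6 to 47.3) from 4 to 6 and at 17 of 46 (37.0%, 24.5 to 51.4) from 6 on. Each share was higher than the one before, and the intervals of neighbouring groups overlapped. The median fold enrichment was 5.29 over the 55 starts with A, 5.41 over the 13 with T, 4.02 over the 92 with G and 3.91 over the 26 with C. The medians with A and T were thus close, and those with G and C lower. A RefSeq start need not be the start used in iBAT, and the limits of the groups were chosen after the values were seen. In the first 50 transcribed bases, on the transcribed strand, GGAC stood in 21% (15.7 to 27.4) of the 186 starts and in 18.9% of all, GGACT, which holds GGAC, in 4.30% (2.20 to 8.26) and 5.76%, and CCATG in 6.45% (3.73 to 10.9) and 5.57%. All 3 shares over all starts lay within the intervals. Motifs in the regions themselves were not analysed here.

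Several genes carried more than 1 kept region, and their regions differed. Of the 5276 genes, 1259 had at least 2, and the ratio of the highest to the lowest had a median of 1.81 and reached 2 in 535 genes. *Eif3a*, a subunit of a translation initiation factor, had 7 kept regions, 6 of them in internal exons, from 2.15 to 6.02. *Rrbp1*, a ribosome receptor of the endoplasmic reticulum, had 6 from 1.24 to 4.72, *Safb2* 6 from 1.47 to 3.89 and *Tnnt1* 6 from 1.44 to 11.7. In *Tnnt1* a single internal exon region stood apart from the other 5, the next being at 4.23. The predicted gene *Gm20388* spans other genes of chromosome 8, and most of its 39 regions also lie over those genes and cannot be told apart from them.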

How the data were processed

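Chemically fragmented poly(A)+ RNA of iBAT was captured with an m6A antibody and sequenced. By the study's methods, adaptors were removed with skewer, BWA (0.7.12-r1039) aligned the reads to GRCm38 and MACS2 (2.1.0) called the peaks. The submitters' processing notes also name FastQC and HOMER. Not given in the sources used here were the merging of peaks, the counting of reads and the first base of coordinates (0 or 1). Read counts per region and library are deposited. The authors added 1 to each count and scaled it to RPM. The deposited fold enrichment is the ratio of IP to input RPM, and recomputing it gave the same values within 0.000789%. The deposited log2 ratio of BKO over flox/flox, the authors' own comparison, was not used. No other per-sample column was left aside.

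A region over several genes entered counts of regions 1 time, and each gene took its kept region with the highest BKO fold enrichment. Places are the deposited labels of the peak center, grouped, with a class for regions labelled differently over several genes. Counting intervals (95%) used the counts plus 1 on the log scale with 2 reads per fragment, since 77.2% of BKO input and 80.8% of BKO IP counts from 1 to 20 were even. The intervals were run on counts simulated with the same 2 reads per fragment. Such counts cannot show whether this model holds for the libraries. Intervals and Wilson intervals of shares cover counting error only, since PCR copies are no independent molecules. Members and gene lists were chosen with earlier results of these data known. List patterns for zinc fingers, channels and BMP genes were corrected, and the grouping of places, reads per fragment, GO summary, start base groups and minimum of 100 input reads were set, after the table was seen.

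Named genes were the 25 with the highest BKO fold enrichment in regions over 1 gene, and the 5 highest and the deepest region of each place. Also named were the 3 highest and 2 lowest of each list, and *Prdm16*, *Pparg* and *Ucp1*. Added to these were the 10 named-gene regions with the most BKO IP reads, taken 1 per gene, and the 5 genes with the most regions. Not all of these are printed, some genes are not reported here, and further list members served as examples chosen after their values were seen. Start sequences came from RefSeq (GRCm38.p6). GO cells of 558 genes were not used here. Calculations used Python 3.11.15, pandas 2.3.3, NumPy 2.4.6, SciPy 1.17.1 and Matplotlib 3.10.9.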

Additional observations from a re-analysis of the deposited data

How the results depend on the processing

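No paired analysis was possible because each group has 1 library, and for the same reason no library could be left out. Of the values recomputed under another setting, 240 moved by less than the spread used as the limit and 48 moved by more. That limit is wide for lists of few genes, and reversals of direction were not looked for. Fold enrichments rest on the library totals: with totals from the reads inside the listed regions, the median was 1.06 and 1269 regions reached 2. With at least 50 input reads, 3103 regions reached 2, and the medians were 2.38 over all regions, 2.99 at the 5′ end, 2.35 in last exons and 3′-UTRs, 2.60 over all genes, 3.49 for zinc finger genes, 2.57 for MAP kinases and phosphatases and 2.55 for predicted transcripts. The most enriched 10% then held 65.4% in last exons and 3′-UTRs and 8.22% at the 5′ end, and 6 of the 25 most enriched genes were shared. With at least 10 reads the medians were 2.84 over all regions, 4.0 at the 5′ end and 2.70 at the 3′ end. With no minimum they were 3.05, 4.12 and 2.83, and the shares 44.2% and 7.78%. With at least 100 reads, chosen after the data were seen, the medians were 2.68 at the 5′ end, 2.13 at the 3′ end, 2.41 over all genes, 3.34 for zinc finger genes, 2.20 for RNA-binding factors, 2.71 for ubiquitin ligases, 2.60 for small GTPases, 1.56 for solute carriers, 1.98 for ion channels and 2.33 for predicted transcripts.

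With 5 added to each count, the medians were 2.59 over all regions, 3.46 at the 5′ end and 2.87 over all genes. Over regions called in BKO iBAT, they were 3.22 over all regions and 3.23 in last exons and 3′-UTRs. With the mean over the regions of a gene, they were 2.70 over all genes and 2.53 for predicted transcripts. With the region of the most input reads, they were 2.63 over all genes, 1.67 for thermogenic genes, 2.37 for imprinted genes and 2.42 for predicted transcripts. Over regions of 1 gene, imprinted genes had 1.83, and last exons and 3′-UTRs made up 67.5% of the most enriched 10%. In the most enriched 5%, this share was 67.7% and that of the 5′ end 8.56%. Ranked by the lower bound of the interval, the share of the 5′ end was 9.0% and 15 of the 25 genes were shared. The cause of these moves was not tested. Input depth limits the head of the order, as with *Nectin3* (interval 9.59 to 33.2 on 20 input reads).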

Other observations

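Gene Ontology terms in the deposited table were summarised over 251 terms with at least 30 kept genes each, which covered 4451 of the 5276 genes. The highest medians were those of G protein-coupled receptor activity (4.90 over 39 genes, with *Mrgprf*, *S1pr2* and the anaphylatoxin receptor gene *C3ar1* at its head), G protein-coupled receptor signaling pathway (4.90 over 61), inflammatory response (4.70 over 35), cell-cell junction (4.42 over 30) and cell surface (4.23 over 71). The lowest were those of tRNA processing (1.67 over 35), ribosome (1.70 over 67), mitochondrial matrix (1.73 over 65), structural constituent of ribosome (1.73 over 51) and translation (1.91 over 116). The terms share genes with each other and with the lists above, so these are not independent values. The terms differed in depth too, with a median of 71 input reads for receptor activity and 214 for ribosome.

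Regions under the minimum of input reads were more enriched than those kept, with a median of 6.74 over 2032 regions. By chromosome, the medians of kept regions lay between 2.50 and 3.01.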
